A study of Mus musculus with 2 samples.

Results

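The Rtl1 antisense microRNAs are 8 microRNA genes on the plus strand of mouse chromosome 12: Mir337, Mir540, Mir665, Mir431, Mir433, Mir127, Mir434 and Mir136. They were chosen by symbol, from the microRNA genes of GENCODE M21 that lie antisense to Rtl1 or next to it, and make up 8 of the 2202 microRNA genes counted. Small RNA was sequenced from left cerebral cortex of male B6CASTF1/J mice aged 14 days, a first-generation hybrid of C57BL/6 and CAST, with no treatment named. The study had 1 group of 2 libraries, labelled as biological replicates 1 and 2, so it holds no comparison of conditions. Both libraries carry the same donor label and come from tissue records numbered 3 and 4. Both records also carry the wording "3x Males", and the labels do not say whether tissue of several animals was pooled. Each SD below is therefore the spread of 2 libraries, and that spread may be technical only.

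The Dlk1-Dio3 region is an imprinted domain in which the chromosomes from mother and father express different genes. The protein-coding genes Dlk1, Rtl1 and Dio3 are expressed from the paternal chromosome, and the long non-coding RNAs and microRNAs, including the transcript antisense to Rtl1, from the maternal one. Rtl1 is a gene derived from a retrotransposon and is needed in the placenta. MicroRNAs cut from the antisense transcript match Rtl1 mRNA base for base, and are known to direct its cleavage. The counts here do not separate the parental alleles, and Rtl1 mRNA was not measured.

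The members span 9600 bases. Mir337 (ENSMUSG00000065526.4, chr12:109585789-109585885, mm10), Mir540 (ENSMUSG00000072900.2, chr12:109586080-109586146) and Mir665 (ENSMUSG00000076313.1, chr12:109586314-109586407) lie outside Rtl1, beyond its 3′ end. The gap from Mir665 to Rtl1 was 2785 bases. The other 5 lie inside exon 2 of Rtl1 (chr12:109589193-109600330, minus strand), on the opposite strand: Mir431 (ENSMUSG00000070080.1, chr12:109590447-109590537), Mir433 (ENSMUSG00000070072.1, chr12:109591715-109591838), Mir127 (ENSMUSG00000070076.2, chr12:109592846-109592915), Mir434 (ENSMUSG00000070133.1, chr12:109594506-109594599) and Mir136 (ENSMUSG00000104858.1, chr12:109595327-109595388). All 5 hairpins fall wholly within the coding part, which has 1744 codons. In the order of the Rtl1 mRNA, Mir136 faces codons 6 to 26, Mir434 codons 269 to 300, Mir127 codons 830 to 853, Mir433 codons 1189 to 1230 and Mir431 codons 1623 to 1653.

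A mature microRNA selects its targets mainly through its seed, bases 2 to 8 from the 5′ end. The files count hairpins and do not separate the 2 arms, so both arms of each member are shown, with the seed in capitals (RefSeq, GRCm38.p6). The first 10 lines are the arms from hairpins inside Rtl1 and the last 6 those from hairpins beside it.
miR-127-5p: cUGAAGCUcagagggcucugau
miR-127-3p: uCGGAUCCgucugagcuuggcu
miR-433-5p: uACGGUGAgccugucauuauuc
miR-433-3p: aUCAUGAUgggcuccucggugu
miR-431-5p: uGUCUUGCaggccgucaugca
miR-431-3p: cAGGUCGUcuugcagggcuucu
miR-434-5p: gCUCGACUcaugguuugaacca
miR-434-3p: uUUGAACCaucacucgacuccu
miR-136-5p: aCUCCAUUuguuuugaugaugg
miR-136-3p: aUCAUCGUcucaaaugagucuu
miR-337-5p: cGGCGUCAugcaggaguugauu
miR-337-3p: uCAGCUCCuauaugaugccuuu
miR-540-5p: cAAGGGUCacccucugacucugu
miR-540-3p: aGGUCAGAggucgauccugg
miR-665-5p: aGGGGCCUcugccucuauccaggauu
miR-665-3p: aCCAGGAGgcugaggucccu

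All 8 members matched the RefSeq table, and their 16 mature forms carried 16 different seeds, so they form no seed family among themselves. Outside the members, 1 mature form of the table shared a seed with one of them: miR-6915-5p, from chromosome 10, has the seed of miR-540-3p. Of the 1398 different seeds in the table, 84.5% were found in mature forms of 1 gene only, so unshared seeds are not particular to the members. Mir6915 had 22 counts in replicate 1 and 25 in replicate 2, against 6777 and 4846 for Mir540.
miR-6915-5p: aGGUCAGAgcagauggagguucgu

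The full complement of a mature form was looked for in the 58797 protein-coding transcripts of GENCODE M21. All 10 mature forms from the 5 hairpins inside Rtl1 had 1 such site in Rtl1 mRNA and none in the transcripts of another gene. The site in Rtl1 follows from their position opposite the coding sequence. None of the 6 forms from Mir337, Mir540 and Mir665 had a full complement in any of these transcripts. Over the whole table, 59 of 1674 different mature sequences (3.52%) had a full complement in some protein-coding transcript. The sites of the most abundant member, Mir127, are shown as they stand in Rtl1 mRNA, with the bases opposite the seed in capitals; they span codons 843 to 850 and codons 832 to 839.
Rtl1 site of miR-127-5p (chr12:109592854-109592875): atcagagccctctgAGCTTCAg
Rtl1 site of miR-127-3p (chr12:109592888-109592909): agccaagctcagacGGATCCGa

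In a pair of hairpins the same stretch recurs in both arms. In Mir431 a stretch of 10 bases, shown in capitals, occurs 2 times, once in each mature form. In Mir434 a stretch of 9 bases occurs 3 times, in both mature forms and once more before them.
Mir431: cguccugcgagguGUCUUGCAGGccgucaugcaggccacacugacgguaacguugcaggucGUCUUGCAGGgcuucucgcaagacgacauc
Mir434: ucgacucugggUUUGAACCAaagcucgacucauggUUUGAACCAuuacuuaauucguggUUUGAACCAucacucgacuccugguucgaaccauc
In the other 6 members the longest stretch common to both arms was 4 to 6 bases. Between different members the longest common stretch was 9 bases, shared by miR-337-5p and miR-431-5p.

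The libraries held 4111167 and 3189903 counts in microRNA genes, out of 11224232 and 8758378 reads. Reads that matched several positions, 39.1% and 41.4% of the reads, were given to no gene. No member shared an 18-base stretch of hairpin with another microRNA gene on its own strand, and each mature form was found in 1 annotated microRNA gene. Such a stretch was shared by 1120 of all 2202 genes and by 90 of the detected genes. Counts of genes with near copies can be too low, so shares, ranks and levels against all genes can be too high for the members. Copies elsewhere in the genome were not searched. The 4 neuron-associated marker genes Mir128-1, Mir137, Mir138-1 and Mir132 averaged between 4807 and 16177 CPM, and the 5 marker genes of liver, muscle, red cells and islets between 0 and 66.2 CPM. CPM (counts scaled to a library total of 1000000) take the total over microRNA genes on their own strand. They are not divided by hairpin length, since a read of this size class stands for a short RNA and not for a fragment of the hairpin. In bulk tissue, a lower level from fewer expressing cells and from less RNA per cell cannot be told apart.

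All 8 members were detected (a minimum of 10 counts per library), as were 18.4% of all genes. The list was chosen with earlier results of these data known, so this is a description and not a test. Mir432, also antisense to Rtl1 but not on the list, had no counts. They reached very different levels: Mir127 and Mir433 stood far above the rest, 4 members lay on average between 1584 and 3003 CPM, and Mir665 and Mir136 lay below 1000. Together the 8 genes held 7.01% ± 0.379 (SD, n = 2) of the counts. Replicate 1 gave 7.28%, with an exact 95% interval from 7.26 to 7.31%, and replicate 2 gave 6.74%, with one from 6.72 to 6.77%. The gap between the libraries was wider than these intervals. They hold only the error of counting, and no molecular identifiers are described, so PCR copies were counted as separate molecules. The median level of the members was 11.40 in log2(CPM + 1), against 6.97 for all detected genes and 0 for all genes.

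Mir127 had 166811 counts in replicate 1 and 121055 in replicate 2, or 40575 and 37949 CPM. Its mean of 39262 ± 1857 CPM (SD, n = 2) placed it at rank 5 of all 2202 genes, with reads that matched several positions left out. Its product is best known from the placenta, where it is needed for the labyrinth. Mir433 had 84260 and 61668 counts, or 20495 and 19332 CPM, with a mean of 19914 ± 822 CPM at rank 12. These 2 genes held 84.4% ± 0.738 (SD, n = 2) of the members' counts, 56.0% from Mir127 and 28.4% from Mir433.

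Mir431 had 12869 and 9173 counts, or 3130 and 2876 CPM, and ranked 61. Mir434 had 12430 and 6617 counts, or 3023 and 2074 CPM, and ranked 66. Both lie inside Rtl1, on either side of the abundant pair. Mir136, which faces the first codons of Rtl1, was the least abundant member at 1079 and 502 counts, or 262 CPM (exact 95% interval 247 to 279) and 157 CPM (144 to 172). It ranked 183.

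**Figure D1:**
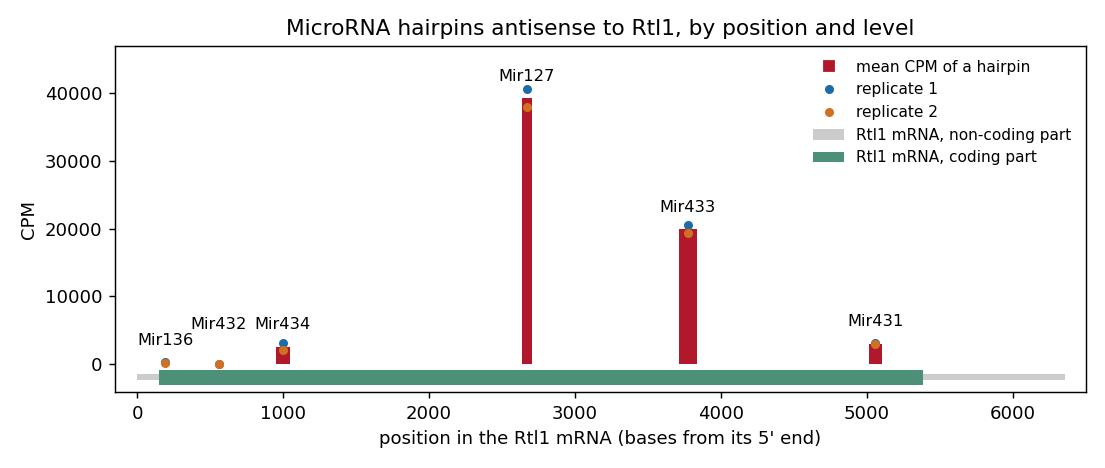
Position in the Rtl1 mRNA (x axis, bases from its 5′ end) and level (y axis, CPM on a linear scale from 0) of the hairpins antisense to it; bars are means of 2 libraries as wide as the hairpin, points are single libraries, and the strip marks the coding part. Mir127 (39262 CPM) and Mir433 (19914 CPM) stand above Mir431, Mir434 and Mir136, and Mir432 is at 0.

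Beside Rtl1, Mir337 had 13203 and 8521 counts, or 3212 and 2671 CPM, and ranked 63. Mir540 had 6777 and 4846 counts, or 1648 and 1519 CPM, and ranked 85. Mir665 had 1886 and 2773 counts, or 459 and 869 CPM, and ranked 127. The last was the only member of the 8 with more counts in replicate 2, although that library was the smaller one.

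**Figure D2:**
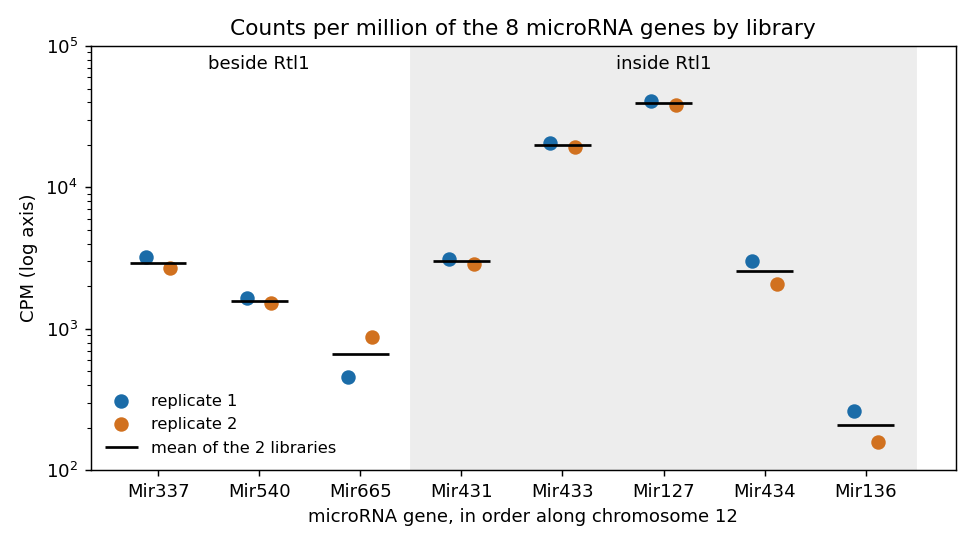
CPM of each member (y axis, log scale) in the 2 libraries (points) with their mean (line), in order along chromosome 12. Mir127 and Mir433 lie at 19332 CPM or more in both libraries, Mir136 lies lowest, and Mir665 is the member whose replicate 2 point is the higher one.

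By mean CPM the order was Mir127, Mir433, Mir431, Mir337, Mir434, Mir540, Mir665 and Mir136. Mir127 was 1.98 times as abundant as Mir433 in replicate 1 and 1.96 times in replicate 2. Mir433 was 6.55 and 6.72 times as abundant as Mir431. Over the libraries, the range of Mir431 overlapped that of Mir337, which overlapped that of Mir434, and the ranges of all other neighbours in the order were apart. Within each library, Mir434 was below both: Mir337 exceeded it 1.06 and 1.29 times, and Mir431 1.04 and 1.39 times. Mir431 and Mir337 changed order between the libraries, at ratios of 0.975 and 1.08. Mir127 exceeded Mir136 by 155 times in replicate 1 and 241 times in replicate 2. With strand ignored Mir136 has no counts, and the widest ratio among the members left is 59.1.

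The 5 genes inside Rtl1 held 6.49% ± 0.360 (SD, n = 2) of all counts and the 3 beside it 0.519% ± 0.0183. Of the members' own counts, the genes inside Rtl1 made up 92.7% in replicate 1 and 92.5% in replicate 2. This split rests on Mir127 and Mir433. The levels of Mir431 and Mir434 lay near that of Mir337 beside Rtl1, and Mir136 lay below all 3 genes there.

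Another 5 annotated microRNA genes lie between Mir337 and Mir136 or opposite them. Mir432 is also antisense to the Rtl1 coding sequence, opposite codons 125 to 150, between Mir434 and Mir136. No read was counted for it in either library. With counting error alone, its level could still be as high as 0.730 CPM in the deeper library and 0.940 CPM in the other. Its full complement in Rtl1 spans codons 126 to 133. Between Mir665 and Rtl1, Mir3070a had 83 and 42 counts in the 2 libraries, and Mir3070b 160 and 108. They share their 5p mature form, and reads of it match both genes, so their counts can be too low. Mir3544 and Mir3071 lie on the minus strand, the strand of Rtl1, opposite Mir337 and Mir136. Mir3071 had 0 counts in both libraries, against 1079 and 502 on the strand of Mir136. Mir3544 had 5 and 1 counts, against 13203 and 8521 for Mir337. No read was counted on the strand opposite to Mir540, Mir665, Mir431, Mir433, Mir127, Mir434 or Mir136.

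The strand of the counts decides whether Mir337 and Mir136 can be measured. With strand ignored, reads there overlap a pair of genes and are assigned to neither, and both members fall to 0 counts in both libraries.

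From Mir770, inside Meg3, to Mir410, at the far end of the Mirg cluster, the Dlk1-Dio3 region holds 56 microRNA genes besides the members. The members held 32.0% ± 0.796 (SD, n = 2) of the counts of the whole set, 32.6% in replicate 1 and 31.4% in replicate 2. Without Mir127 this share is 17.2%. The Mirg cluster, with 43 genes, held 10.4% ± 0.299 of all counts and the Rtl1 members 7.01% ± 0.379. The 3 genes from Mir770 to Mir493 held 3.98% ± 0.568, and the 5 genes of the Rian region 0.462% ± 0.0106. At least 1000 CPM was reached by 6 of the 8 members and 19 of the 56 other genes of the region. Over all genes this share was 4.77%, and over detected genes 25.9%. The 56 include minus-strand genes opposite a counted hairpin, such as Mir3544 and Mir3071, with few or no counts. They also include Mir432, Mir3070a and Mir3070b, which lie among the members and averaged 0, 16.7 and 36.4 CPM. The median of detected genes was 11.40 in log2(CPM + 1) for the members and 9.47 for the other genes of the region, of which 42 were detected. These are descriptions with no test, since the libraries form 1 group.

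**Figure D3:**
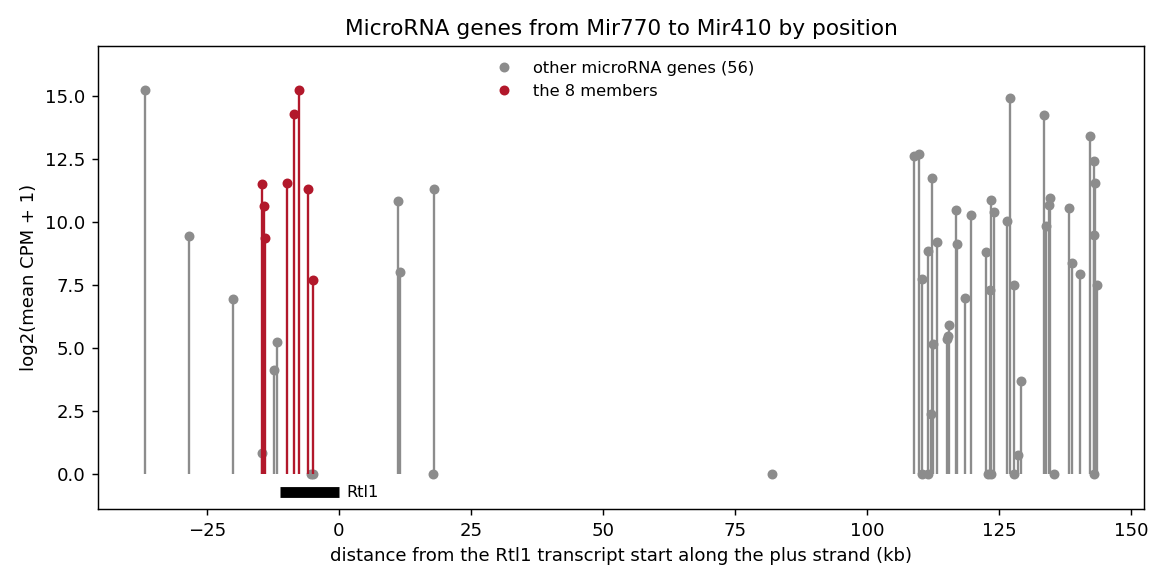
Mean level (y axis, log2 of mean CPM + 1) of the 64 microRNA genes from Mir770 to Mir410 by distance from the Rtl1 transcript start (x axis, kb along the plus strand). The members (red) lie in and beside Rtl1 and include Mir127, which has the highest mean of the region by a small margin over Mir770 (39262 against 39018 CPM), while genes at 0 had no counts in either library.

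The most abundant other genes of the region were Mir770 (39018 ± 5557 CPM), Mir487b (31244 ± 2225 CPM) and Mir382 (19697 ± 1027 CPM). Mir770 was above Mir127 in replicate 1, at 42948 CPM, and below it in replicate 2, at 35089 CPM. The order of these genes was therefore not settled by 2 libraries. Mir382 stood at 20423 and 18971 CPM, close to Mir433 in both.

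Each member was set beside the 2 other detected genes, members included, nearest to it by Euclidean distance of log2(CPM + 1) over the 2 libraries. This likeness is one of level over 2 libraries and not of a pattern over conditions. Mir127 was nearest to Mir770 and Mir487b, and Mir433 to Mir382 and Mirlet7e. Mir431 was nearest to Mir369 and Mir221, and Mir337 to Mir221 and to Mir431, another member. Mir434 was nearest to Mir296 and Mir370, Mir540 to Mir219a-2 and Mir125b-1, Mir665 to Mir31 and Mir351, and Mir136 to Mir384 and Mir500. Besides Mir431, the genes Mir770, Mir487b, Mir382, Mir369 and Mir370 are themselves in the Dlk1-Dio3 region. The closest match was Mir369 to Mir431, at 3160 and 2887 CPM, and the poorest nearest match was Mir31 to Mir665, at 468 and 1085 CPM.

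The 2 libraries were compared gene by gene with an exact binomial test of each gene's split of counts against the split of the library totals, adjusted over all 406 detected genes. Such a test compares 2 libraries by read sampling alone and says nothing of conditions. All 8 members passed it, 1 higher and 7 lower in replicate 2. Of detected genes 58.1% passed, 23.4% as higher and 34.7% as lower. The test passes smaller differences at higher counts, and median levels were 2745 CPM for the members and 129 CPM for detected genes. These shares, and those for the other scalings, are thus not matched for level. With TMM library sizes, which add 0.08 to every log2 ratio, 1 member was higher, 4 were lower and 3 did not pass (Mir540, Mir431 and Mir433), where 54.4% of detected genes passed. DESeq2 size factors gave the same split, with 54.2% of detected genes passing. With TMM factors computed over all genes, an alternative chosen after seeing the data, 3 members were higher, 3 were lower and 2 did not pass, where 53.9% of detected genes passed, 32.3% as higher and 21.7% as lower. Lower members thus outnumbered higher ones under the first 3 scalings and not under the last.

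Mir665 differed most. Its log2 ratio of replicate 2 to replicate 1 was 0.92, or 1.89-fold (adjusted p = 3.57e-103, exact binomial test). Mir136 was lower in replicate 2 by a log2 ratio of -0.74 (adjusted p = 1.18e-21, exact binomial test), and Mir434 by -0.54 (adjusted p = 1.09e-138, exact binomial test). Mir337 followed at -0.27, and these 4 genes kept their direction and passed the test with TMM and with DESeq2 library sizes. Mir431, Mir540, Mir127 and Mir433 had log2 ratios between -0.12 and -0.08. Of these, Mir127 alone also passed as lower with TMM and with DESeq2, at -0.017 and -0.014. All 4 of this second group turned to slightly higher in replicate 2 when the TMM factors were computed over all genes, at 0.02 to 0.06. By library totals no member differed by over 2-fold between the libraries, against 9.85% of detected genes. Mir665 lay just past 2-fold with each other scaling: its log2 ratio was 1.00 with TMM and with DESeq2 (11.1% of detected genes past 2-fold in each) and 1.07 with TMM over all genes (10.6%). The median absolute log2 ratio was 0.19 over the members, 0.27 over the other detected genes of the Dlk1-Dio3 region and 0.30 over all detected genes. These groups differ in level, with median CPM of 2745, 712 and 129. Counting error is larger at low counts, and its part in these medians was not tested.

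**Figure D4:**
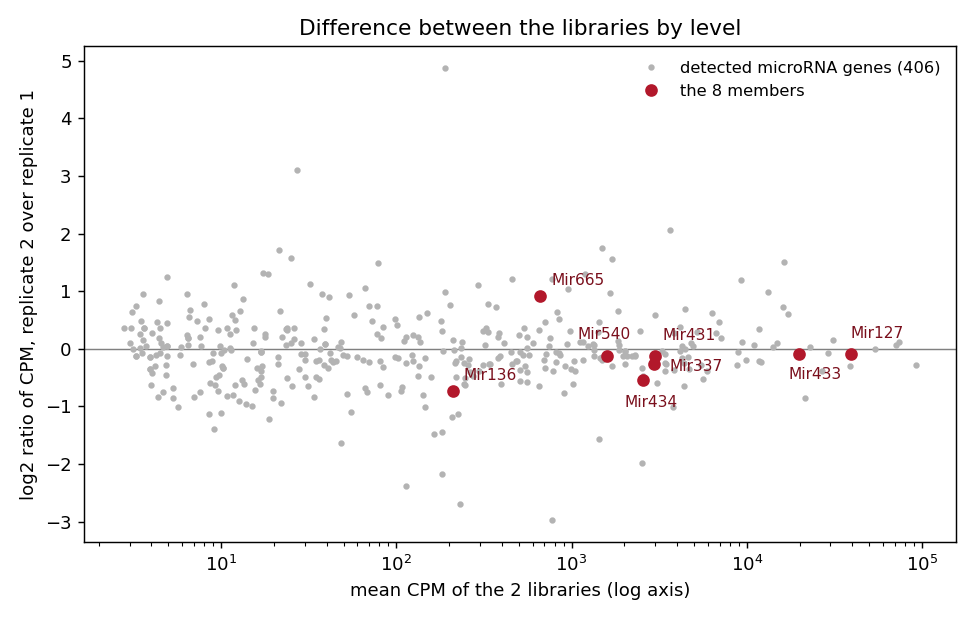
Log2 ratio of CPM, replicate 2 over replicate 1 (y axis), against mean CPM (x axis, log scale) for the 406 detected genes (grey) and the members (red), by library totals. Mir665 lies above 0 at 0.92, Mir136 and Mir434 below it at -0.74 and -0.54, and the remaining members between -0.27 and -0.08.

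Ratios between members need no library size. Of 28 pairs of members, 27 had the same order in both libraries; the exception was Mir431 and Mir337. Among Mir127, Mir433, Mir431 and Mir540, a set chosen after its values were seen, each of the 6 ratios was the same in both libraries to within 1.03-fold. The genes were picked for their like log2 ratios, so this is a description only. The set joins 3 genes inside Rtl1 with 1 beside it. The 7 pairs with Mir665 changed by 2.01- to 3.16-fold between the libraries, and no other pair changed by more than 1.57-fold. Mir540, the nearest neighbour of Mir665 along the chromosome, had 3.59 times its counts in replicate 1 and 1.75 times in replicate 2. The median change was 1.35-fold over the pairs of members, 1.28-fold over pairs of detected Dlk1-Dio3 genes and 1.42-fold over all pairs of detected genes.

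The members' hairpins had 62 (Mir136) to 124 bases (Mir433), and a GC content of 40.3% (Mir136) to 61.2% (Mir540). The medians of detected genes were 82 bases and 51.9%. The predicted folding energy per base ran from -0.61 kcal/mol in Mir540 to -0.36 in Mir433, against a median of -0.43 over detected genes. The most abundant member, Mir127, stood at -0.50 and the least abundant, Mir136, at -0.45. Of the 16 mature forms, 6 begin with A, 5 with U, 4 with C and 1 with G, while 40.9% of all mature forms in the table begin with U.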

How the data were processed

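The authors deposited raw read counts per microRNA gene, 1 table per library, with no normalization. Per the file descriptions, the assembly is mm10 and the annotation GENCODE M21; for the aligner and the counter, no name or version is given in the sources used here. All 2202 gene IDs matched GENCODE M21. Each table gives counts with strand ignored, on the strand of the gene and on the opposite strand, after 4 rows of reads in no gene; this meaning was read from the layout. The column for the gene's own strand was analysed. CPM took the sum over genes as the library total, and detection needed 10 counts in each library. Exact Clopper-Pearson 95% intervals were computed per library. Libraries were compared by exact binomial tests, two-sided, with p-values adjusted by Benjamini-Hochberg (scipy 1.17.1) and a threshold of 0.05; an exact sign-flip test over 2 libraries cannot give a two-sided p below 0.5, so no test over samples was run. TMM factors (edgeR 4.0.16) and DESeq2 1.42.0 size factors over detected genes were alternatives, as were other count minimums, thresholds and pseudocounts, strand ignored, and leaving out a gene, a member or a library. Mature forms and hairpins came from RefSeq (GRCm38.p6), and all 8 hairpins matched GENCODE in position and sequence. Folding energies came from RNAfold 2.7.2. Copies of mature forms were sought in annotated transcripts; a genome sequence was not used here. Named genes were the members, microRNA genes between or opposite them, and the 2 genes nearest each member in level. Also named were the 3 most abundant other genes of the region, genes sharing a seed and the tissue markers. The members and lists were chosen with earlier results of these data known.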

Additional observations from a re-analysis of the deposited data

Results flagged for a closer look

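At Mir337, 5 reads of replicate 1 were counted on the opposite strand, outside the counts used for Mir337 and above the 3 counts that a count of 0 allows. Mir3544 is annotated on that strand, and its own count in replicate 1 was also 5. Replicate 2 had 1 such read, and the strand of Mir337 itself had 13203 and 8521 counts.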

How the results depend on the processing

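Under alternatives that kept both libraries, 24 recomputed values of the summary results stayed within 1 SD, or 1.5 times for counts, and 12 did not. The members' share of counts was 2.56% of all reads, 7.73% without Mir139, the most abundant gene counted, and 3.21% without Mir127, and their share of the Dlk1-Dio3 counts was 17.2% without Mir127; these follow from the totals and genes left out. With strand ignored, which removes the counts of Mir337 and Mir136, the median level was 11.06 and the widest ratio 59.1. The members that differed between the libraries numbered 5 with TMM and 5 with DESeq2 library sizes, with 4 and 4 lower in replicate 2. With TMM factors over all genes, an alternative chosen after seeing the data, 3 were higher and 3 lower (53.9% of detected genes passed), and the log2 ratio turned to 0.0276 for Mir540, 0.0230 for Mir431, 0.0611 for Mir433 and 0.0489 for Mir127, since this scaling adds 0.15 to every log2 ratio. In single libraries, without the other replicate, the results ran from 6.74 to 7.28% for the share of counts, from 31.4 to 32.6% for the share of the region, from 11.20 to 11.59 for the median level and from 155 to 241 for the widest ratio, with 8 to 8 members detected; with 2 libraries these cannot move far and say little about stability. No paired analysis was possible because there is 1 group. Depth limits Mir136 most among the members, with 502 counts in replicate 2.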
